A study of Mus musculus with 6 samples.

Results

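The 43 genes described here act in DNA replication (22 genes) and in mitosis (21 genes). They were listed by symbol and matched to probes through the transcript accessions on the array. All 43 were present, among 20862 genes that could be named. A gene with several probes is represented by the brightest one, by its mean over the 6 arrays. RNA came from thymi of C57BL/6 mice aged 1.5 to 2 weeks. One genotype lacked TNF (TNF-KO), and the other lacked both TNF and RelA, the p65 subunit of NF-kB (TNF/RelA-DKO), so that TNF was missing in every group and no wild-type array is among them. Loss of TNF is known to spare mice without RelA from death before birth. The study's question was the part of RelA in the egress of mature regulatory T cells. CD4+CD25hi thymocytes, sorted as CD8-negative cells, were pooled from 5 mice per genotype. CD45-EpCAM+ cells, labelled as thymic epithelial cells, and CD45+EpCAM- cells, labelled as thymic stroma and described as enriched for macrophages or dendritic cells, were sorted from 10 digested thymi per genotype. Each of the 6 groups was 1 pool on 1 one-colour Agilent array, so that no value has a spread between animals.

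Cells prepare origins of replication in G1, when Cdc6 and Cdt1 load the Mcm2-7 helicase onto DNA, and fire them in S phase with Cdc45, the GINS complex and Mcm10. E2F transcription factors switch these genes on at the entry to S phase. Genes for mitosis come up later, in G2, and many of their promoters hold a CHR element and CCAAT boxes, through which they are repressed in resting cells and activated in dividing ones. In the thymus, immature thymocytes divide extensively, whereas most mature thymocytes rest.

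The promoter stretches below show the sequence classes that set these groups of genes apart in the textbook picture. RefSeq windows from 250 bases before to 50 bases after an annotated start (assembly GRCm38.p6) were matched by symbol for 18 of 22 replication genes, with 19 windows, and 17 of 21 mitosis genes. The letters searched, on both strands, were TTTGGCGC and TTTCGCGC for E2F, TTTGAA and TTCGAA for the CHR, and CCAAT for the CCAAT box. An E2F match lay in the windows of 6 of 18 replication genes (Cdt1, Mcm3, Mcm5, Mcm6, Mcm7 and Pola1) and of 1 of 17 mitosis genes (Cdk1). It was present in 0.813% of 32851 windows of that length. A CHR match lay in 13 of 17 mitosis genes and in 3 of 18 replication genes (Cdc45, Mcm2 and Mcm7), against 19.2% of all windows. CCAAT boxes were found in 15 of 17 mitosis genes and 12 of 18 replication genes, against 37.4%. Both a CHR and a CCAAT box stood in 13 mitosis genes and 3 replication genes, against 7.52%. Matches of different motifs overlapped in 1 case. A match describes letters and does not show that a factor binds there.

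The stretches cover the 160 bases before the start, 5′ to 3′ on the gene's own strand, with matches in capitals. The first 3 belong to replication genes with an E2F match, and Cdk1 holds all 3 motifs. Cdc20, Kif11, Ube2c and Top2a hold a CHR close to the start with a CCAAT box upstream of it, and Top2a has several of each. On GRCm38.p6 they lie at chr8:75109349-75109508 (Mcm5, plus strand), chr1:128359706-128359865 (Mcm6, minus), chrX:93632156-93632315 (Pola1, minus), chr10:69352913-69353072 (Cdk1, minus), chr4:118437344-118437503 (Cdc20, minus), chr19:37376222-37376381 (Kif11, plus), chr2:164769769-164769928 (Ube2c, plus) and chr11:99024190-99024349 (Top2a, minus).
Mcm5: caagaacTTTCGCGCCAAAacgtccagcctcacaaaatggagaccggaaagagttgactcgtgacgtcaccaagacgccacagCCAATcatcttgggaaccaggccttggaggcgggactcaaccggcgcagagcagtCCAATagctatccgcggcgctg
Mcm6: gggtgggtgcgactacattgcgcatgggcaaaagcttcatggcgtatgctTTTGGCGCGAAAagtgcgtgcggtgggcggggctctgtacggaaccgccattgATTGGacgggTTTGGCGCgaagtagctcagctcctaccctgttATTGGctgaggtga
Pola1: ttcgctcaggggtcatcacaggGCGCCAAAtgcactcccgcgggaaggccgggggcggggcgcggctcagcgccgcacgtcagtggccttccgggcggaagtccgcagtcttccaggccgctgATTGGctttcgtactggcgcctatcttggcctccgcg
Cdk1: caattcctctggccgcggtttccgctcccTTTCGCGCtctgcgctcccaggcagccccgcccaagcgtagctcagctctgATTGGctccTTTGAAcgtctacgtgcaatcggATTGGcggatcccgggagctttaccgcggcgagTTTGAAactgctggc
Cdc20: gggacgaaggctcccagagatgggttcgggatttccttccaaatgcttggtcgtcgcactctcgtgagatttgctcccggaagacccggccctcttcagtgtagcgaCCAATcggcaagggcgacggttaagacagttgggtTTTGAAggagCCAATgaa
Kif11: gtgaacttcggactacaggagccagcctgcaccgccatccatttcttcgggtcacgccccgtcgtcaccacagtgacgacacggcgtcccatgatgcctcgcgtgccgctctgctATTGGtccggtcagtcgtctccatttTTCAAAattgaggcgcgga
Ube2c: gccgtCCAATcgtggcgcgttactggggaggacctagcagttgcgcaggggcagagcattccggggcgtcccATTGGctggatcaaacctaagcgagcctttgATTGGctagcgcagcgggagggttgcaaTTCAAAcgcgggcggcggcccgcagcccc
Top2a: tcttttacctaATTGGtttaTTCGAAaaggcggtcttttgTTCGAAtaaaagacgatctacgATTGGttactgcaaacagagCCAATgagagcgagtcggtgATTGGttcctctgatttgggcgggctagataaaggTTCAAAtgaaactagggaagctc

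**Figure D1:**
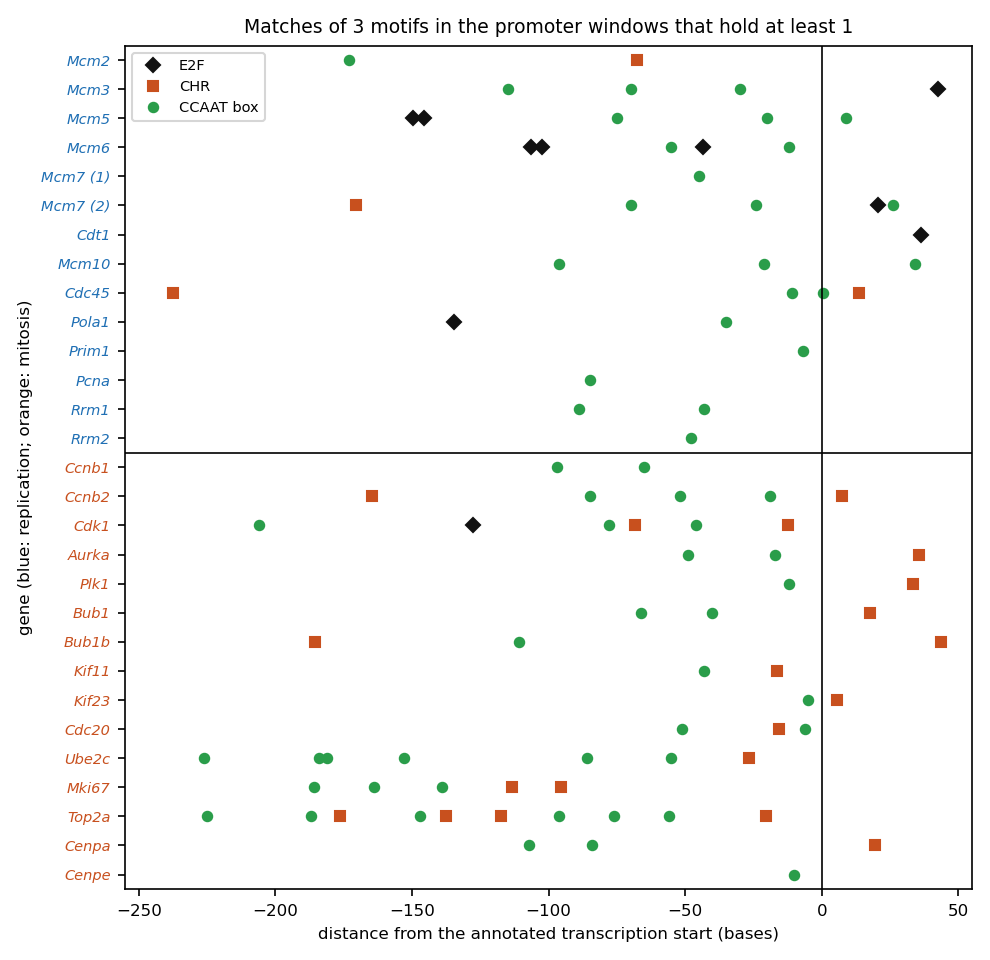
Positions of E2F, CHR and CCAAT box matches, in bases from the annotated start, in each promoter window that holds at least 1 match; replication genes stand above the line and mitosis genes below it. CHR matches are present in 13 of 17 mitosis genes and 3 of 18 replication genes, E2F matches in 1 and 6, and CCAAT boxes in 15 and 12.

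Rela, the targeted gene, was read first. Its level was 4.52 and 2.66 in CD4+CD25hi cells, then 3.84 and 1.81 for CD45-EpCAM+ and 4.04 and 3.30 for CD45+EpCAM- cells, always with TNF-KO before TNF/RelA-DKO, the order kept throughout. It was lower on each TNF/RelA-DKO array, by 1.86, 2.02 and 0.74. Tnf was well above background on 5 of 6 arrays; where these probes lie relative to the deleted parts is not given in the sources used here. A level is log2 of the background-corrected signal minus the array's 75th percentile, so that a difference of 1 is 2-fold. Levels are compared between arrays for 1 gene and never between genes. The 75th percentile signal ranged from 108 on the TNF/RelA-DKO CD45-EpCAM+ array to 675 on the TNF/RelA-DKO CD45+EpCAM- array, and the share of probes well above background from 47.3% to 66.2%. Each population had its own slide, shared by both genotypes, so that population and slide cannot be told apart. The CD45-EpCAM+ arrays used another version of the array design.

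Markers of the sorted cells were checked against the labels. All 6 regulatory T cell markers rose in CD4+CD25hi cells against either other population, and all 6 tested cortical and 5 of 6 tested medullary epithelial markers rose in the CD45-EpCAM+ sort against either other one. Of the cell types that the CD45+EpCAM- label names, macrophage markers were higher there than in CD4+CD25hi cells for 7 of 7 tested. All 7 were called by limma, at an adjusted p under 0.05 and at least 2-fold. Against the CD45-EpCAM+ sort 6 of 7 had the higher mean there, and 3 were called. Dendritic cell markers had the higher mean there for 4 of 6 tested and 5 of 6, respectively, with 3 and 2 called. Of all genes, 7.82% and 19.2% were called higher there in these 2 comparisons. Adgre1 and C1qa, both macrophage genes, did not pass against the CD45-EpCAM+ sort (limma adjusted p = 0.102 and 0.0839). On the CD45+EpCAM- arrays, however, the 5 T lineage genes named on the array (Cd3e, Cd3d, Cd3g, Cd4, Lck) had about the summed signal of CD4+CD25hi thymocytes, 296 and 300 against 296 and 279 times the 75th percentile. The summed signal of 10 immature thymocyte genes such as Rag1, Dntt and Cd8a was 211 and 161 there, against 28.1 and 21.6 in CD4+CD25hi cells and 36.8 and 73.6 in CD45-EpCAM+ cells. Most of the sum in CD4+CD25hi cells came from Satb1, at 4.42 and 4.16. Rag1, Dntt and Cd8a were 22.4-fold, 34.1-fold and 79.65-fold lower in CD4+CD25hi than in CD45+EpCAM- cells. All 10 were well above background on every array except Rag2 on the TNF/RelA-DKO CD4+CD25hi array. Ptprc, which encodes CD45, was well above background in the CD45-EpCAM+ sort as well, at -0.46 and 0.72, against 3.43 and 3.67 in the CD45+EpCAM- sort. Both stromal fractions thus held T lineage and immature thymocyte RNA, which the labels do not name.

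Both groups of genes were highest in CD45+EpCAM- cells, and they ordered the other 2 populations in opposite ways. All 41 members that could be tested, 21 for replication and 20 for mitosis, had their highest mean there. Among replication genes, 19 of 21 then had a higher mean in CD4+CD25hi than in CD45-EpCAM+ cells. Among mitosis genes, 18 of 20 had the higher mean in CD45-EpCAM+ cells. Of all 13739 genes tested, 7574 had the higher mean in CD4+CD25hi and 6165 in CD45-EpCAM+ cells. The CD45+EpCAM- mean exceeded that of CD4+CD25hi cells for 6483 of all genes and that of CD45-EpCAM+ cells for 7539. Testing required a signal well above background on 3 or more arrays. Ccne2 (cyclin E2) was not well above background on any array. Aurkb (Aurora B kinase) reached that level only on both CD45+EpCAM- arrays, so that it was at least 1.13-fold lower in CD4+CD25hi cells. In such sorted pools, fewer dividing cells and less RNA per cell cannot be told apart.

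**Figure D2:**
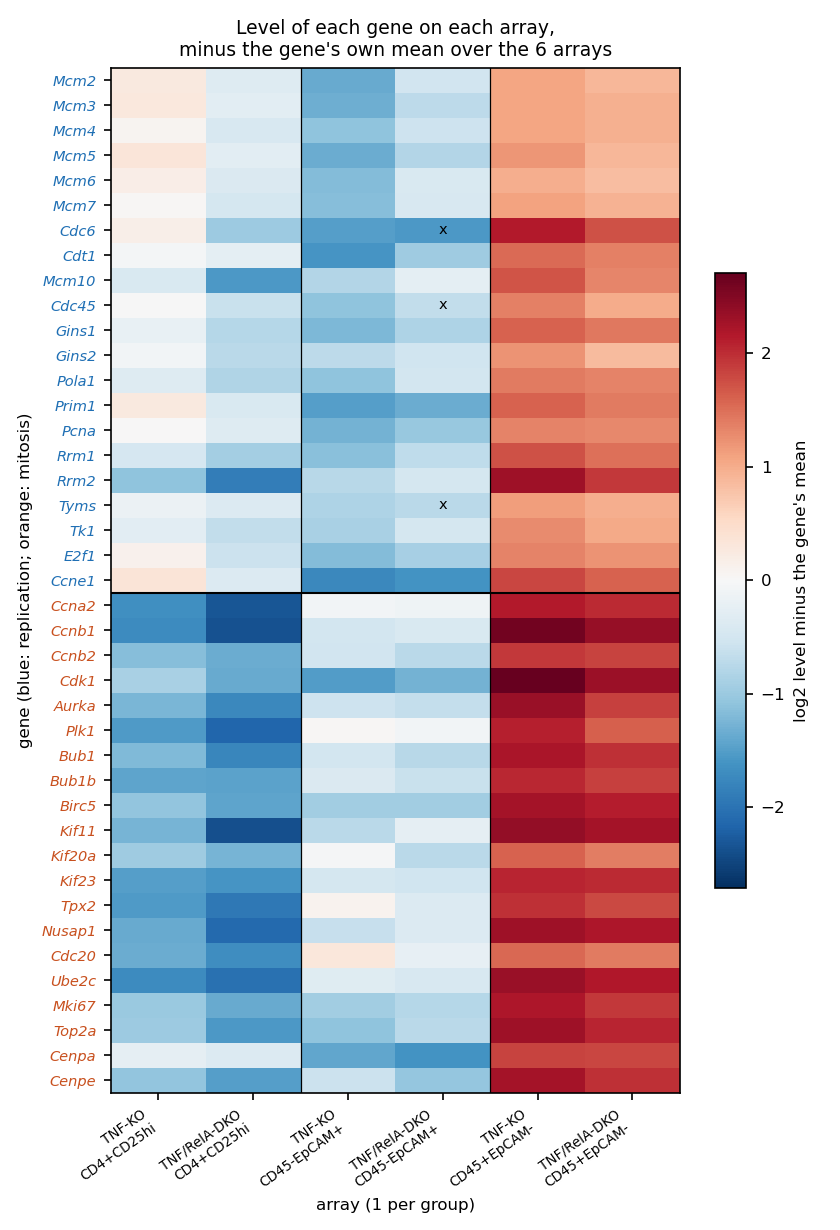
Level of each of the 41 tested members on each of the 6 arrays, in log2 units, minus the gene's own mean over the arrays; an x marks an array on which the gene was not well above background. The CD45+EpCAM- columns are highest for all 41 genes, CD45-EpCAM+ is lowest for 19 of 21 replication genes, and CD4+CD25hi is lowest for 18 of 20 mitosis genes.

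Within the helicase ring, Mcm2 to Mcm7 had the same order of populations. Mcm2 read 2.24 and 1.63 for CD4+CD25hi, 0.62 and 1.47 for CD45-EpCAM+ and 3.06 and 2.89 for CD45+EpCAM- cells. Mcm5 stood at 3.36 and 2.76 in CD4+CD25hi cells, at 1.69 and 2.24 in CD45-EpCAM+ cells and at 4.24 and 3.94 in CD45+EpCAM- cells. Mcm6 read 5.43 and 4.86 for CD4+CD25hi, 4.08 and 4.86 for CD45-EpCAM+ and 6.24 and 6.09 for CD45+EpCAM- cells. Mcm7 stood at 4.08 and 3.57 in CD4+CD25hi cells, at 2.90 and 3.62 in CD45-EpCAM+ cells and at 5.14 and 5.0003 in CD45+EpCAM- cells. The CD45-EpCAM+ TNF-KO array was the lowest of the 6 for each of these 4 genes, and both CD45+EpCAM- arrays lay above all others. Against CD45+EpCAM- cells, all 6 ring genes were lower in CD45-EpCAM+ cells, with differences of -2.13 to -1.69. Their differences between CD4+CD25hi and CD45+EpCAM- cells, -1.25 to -1.01, reached 2-fold but did not pass limma's test.

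Genes that load and fire the helicase differed more widely. Cdc6 read -1.56 and -2.70 for CD4+CD25hi, -3.23 and -3.29 for CD45-EpCAM+ and 0.42 and 0.01 for CD45+EpCAM- cells. It loads the ring onto origins, and its used probe was not well above background on the TNF/RelA-DKO CD45-EpCAM+ array. Cdt1 stood at 2.89 and 2.68 in CD4+CD25hi cells, at 1.35 and 1.97 in CD45-EpCAM+ cells and at 4.47 and 4.30 in CD45+EpCAM- cells. Cdt1 is its partner in loading, and its populations did not overlap. Mcm10 read 0.68 and -0.47 for CD4+CD25hi, 0.29 and 0.82 for CD45-EpCAM+ and 2.80 and 2.42 for CD45+EpCAM- cells. Mcm10, which joins the firing helicase, was one of 2 replication genes with a lower mean in CD4+CD25hi than in CD45-EpCAM+ cells. Of the 6 genes in this group, which also holds Cdt1, Cdc45, Gins1 and Gins2, 5 were lower in CD4+CD25hi than in CD45+EpCAM- cells and all 6 in CD45-EpCAM+ cells.

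DNA synthesis was represented by the primase subunit Prim1, the polymerase subunit Pola1 and the sliding clamp Pcna, and its nucleotide supply by the ribonucleotide reductase genes Rrm1 and Rrm2, thymidylate synthase (Tyms) and thymidine kinase (Tk1). Pcna stood at 4.24 and 3.88 in CD4+CD25hi cells, at 2.96 and 3.21 in CD45-EpCAM+ cells and at 5.58 and 5.54 in CD45+EpCAM- cells. Prim1 read 2.44 and 1.77 for CD4+CD25hi, 0.69 and 0.84 for CD45-EpCAM+ and 3.78 and 3.58 for CD45+EpCAM- cells. Rrm2 stood at 2.09 and 1.30 in CD4+CD25hi cells, at 2.43 and 2.70 in CD45-EpCAM+ cells and at 5.47 and 5.09 in CD45+EpCAM- cells. Pcna and Prim1 put CD4+CD25hi above CD45-EpCAM+ cells on every array, whereas both CD4+CD25hi arrays were the lowest for Rrm2. Against CD45+EpCAM- cells, Rrm2 was 12.0-fold lower in CD4+CD25hi cells (limma, log2 difference -3.59 ± 0.30 SE, adjusted p = 0.0152), the widest such gap among replication genes.

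S-phase entry was represented by the transcription factor E2f1 and cyclin E1 (Ccne1), the partner of Cdk2. E2f1 read 0.70 and 0.02 for CD4+CD25hi, -0.57 and -0.30 for CD45-EpCAM+ and 1.94 and 1.81 for CD45+EpCAM- cells. Ccne1 stood at 1.84 and 1.11 in CD4+CD25hi cells, at -0.27 and -0.14 in CD45-EpCAM+ cells and at 3.29 and 3.07 in CD45+EpCAM- cells. For Ccne1 both CD4+CD25hi arrays exceeded both CD45-EpCAM+ arrays, and for E2f1 they did so too, with 0.02 as the lower CD4+CD25hi value and -0.30 as the higher CD45-EpCAM+ value.

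Mitosis genes showed wider gaps to CD45+EpCAM- cells. Ccna2 read -0.38 and -1.04 for CD4+CD25hi, 1.21 and 1.16 for CD45-EpCAM+ and 3.42 and 3.29 for CD45+EpCAM- cells. Ccnb1 stood at -0.67 and -1.31 in CD4+CD25hi cells, at 0.55 and 0.63 in CD45-EpCAM+ cells and at 3.67 and 3.40 in CD45+EpCAM- cells. Cdk1 read -1.87 and -2.37 for CD4+CD25hi, -2.50 and -2.29 for CD45-EpCAM+ and 1.71 and 1.33 for CD45+EpCAM- cells. These encode cyclin A2, cyclin B1 and Cdk1, the kinase that drives entry into mitosis. Ccna2 and Ccnb1 were lowest on both CD4+CD25hi arrays, while the CD4+CD25hi and CD45-EpCAM+ arrays overlapped for Cdk1.

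Kinases, motors and spindle proteins followed the cyclins. Plk1 stood at 0.47 and -0.15 in CD4+CD25hi cells, at 2.04 and 1.92 in CD45-EpCAM+ cells and at 4.10 and 3.61 in CD45+EpCAM- cells. Aurka read -0.33 and -0.85 for CD4+CD25hi, 0.34 and 0.25 for CD45-EpCAM+ and 3.23 and 2.75 for CD45+EpCAM- cells. Kif11 stood at -2.14 and -3.25 in CD4+CD25hi cells, at -1.61 and -1.12 in CD45-EpCAM+ cells and at 1.51 and 1.37 in CD45+EpCAM- cells. Plk1 and Aurka encode kinases of spindle assembly, and Kif11 the motor that separates spindle poles. Both CD4+CD25hi arrays lay below both CD45-EpCAM+ arrays for all 3 genes. Tpx2 read -1.01 and -1.42 for CD4+CD25hi, 0.62 and 0.15 for CD45-EpCAM+ and 2.51 and 2.32 for CD45+EpCAM- cells. Nusap1 stood at -0.46 and -1.19 in CD4+CD25hi cells, at 0.29 and 0.54 in CD45-EpCAM+ cells and at 3.20 and 3.10 in CD45+EpCAM- cells. Kif20a read 0.04 and -0.25 for CD4+CD25hi, 0.99 and 0.28 for CD45-EpCAM+ and 2.61 and 2.41 for CD45+EpCAM- cells. Tpx2 and Nusap1 encode spindle microtubule proteins and Kif20a a motor of cytokinesis, and they kept the same order of populations. Birc5 stood at 2.56 and 2.20 in CD4+CD25hi cells, at 2.70 and 2.69 in CD45-EpCAM+ cells and at 5.89 and 5.77 in CD45+EpCAM- cells. Birc5 encodes survivin, and its CD4+CD25hi arrays again lay below the CD45-EpCAM+ arrays. Bub1 and Bub1b (checkpoint kinases) and Kif23 (a motor of cytokinesis) did so as well.

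Cdc20 and Ube2c direct the ubiquitin ligase APC/C at mitotic exit. Cdc20 read 1.88 and 1.55 for CD4+CD25hi, 3.54 and 3.03 for CD45-EpCAM+ and 4.79 and 4.64 for CD45+EpCAM- cells. Ube2c stood at 0.16 and -0.15 in CD4+CD25hi cells, at 1.53 and 1.42 in CD45-EpCAM+ cells and at 4.20 and 4.03 in CD45+EpCAM- cells. Cdc20 differed by -1.43 ± 0.15 between CD45-EpCAM+ and CD45+EpCAM- cells, the smallest such gap among mitosis genes, and Ube2c by -4.11 ± 0.13 between CD4+CD25hi and CD45+EpCAM- cells.

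Proteins of chromosomes and centromeres closed the list. Mki67 read 2.82 and 2.44 for CD4+CD25hi, 2.87 and 3.05 for CD45-EpCAM+ and 5.997 and 5.73 for CD45+EpCAM- cells. Top2a stood at 0.16 and -0.42 in CD4+CD25hi cells, at 0.06 and 0.41 in CD45-EpCAM+ cells and at 3.44 and 3.21 in CD45+EpCAM- cells. Cenpa read 0.93 and 0.80 for CD4+CD25hi, -0.23 and -0.43 for CD45-EpCAM+ and 3.001 and 2.98 for CD45+EpCAM- cells. Mki67 is the proliferation antigen Ki-67, Top2a the topoisomerase that untangles sister chromatids, and Cenpa the histone that marks centromeres. Mki67 and Top2a separated CD45+EpCAM- cells from both other populations but barely separated those 2 from each other. Cenpa instead lay higher on both CD4+CD25hi arrays than on both CD45-EpCAM+ arrays, and Cenpe, a kinetochore motor, did not.

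The population comparisons were fitted with limma over 13739 genes, with genotype as a covariate and calls at an adjusted p under 0.05 and at least 2-fold. With 1 array per group, the error in this fit is the variation of the genotype difference from one population to the next, on 2 residual degrees of freedom. Against CD45+EpCAM- cells, 34 of 41 members were called lower in CD4+CD25hi cells and none higher, where 7.82% and 4.80% of all genes tested were called. All 20 mitosis genes were among them (median log2 difference -3.58), with Ccnb1 23.0-fold lower (-4.52 ± 0.22 SE, adjusted p = 0.00918), Kif11 17.6-fold and Mki67 9.39-fold. Of the 21 replication genes, 14 were called (median -1.51), with Pcna 2.82-fold and E2f1 2.85-fold lower. The other 7 differed by -1.49 to -1.01 and comprised Cdc45 and the 6 genes of the helicase ring. At an unadjusted limma p under 0.05, 39 of 41 members differed, beside 4898 of all 13739 genes tested. Over all genes the median difference was 0.04. The adjusted calls ended without any 1 of the 4 arrays in this comparison: 0 members were called without the TNF-KO CD4+CD25hi, TNF/RelA-DKO CD4+CD25hi, TNF-KO CD45+EpCAM- or TNF/RelA-DKO CD45+EpCAM- array, and all 41 differences stayed below 0 in each of these fits. Without a filter on dim probes 20 members were called, 1 of them a replication gene, and quantile normalization left 9 replication genes called.

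Against CD45+EpCAM- cells, all 41 members were also lower in the CD45-EpCAM+ sort and none was higher, beside 19.2% of all genes called lower and 19.4% called higher. The median was -2.13 for replication genes and -2.71 for mitosis genes, and -0.14 over all genes. Cdk1 was 15.1-fold lower (-3.92 ± 0.23 SE, limma adjusted p = 0.00278), Ccne1 10.46-fold and Cenpa 10.0-fold. Mki67 was 7.499-fold lower and Mcm5 4.37-fold. Cdc6, Cdc45 and Tyms were well above background on 1 of 2 CD45-EpCAM+ arrays, so that the size of their differences from that sort is uncertain. When only genes well above background on all 6 arrays were tested, the remaining 18 replication and 20 mitosis genes were all called. Without the TNF-KO or the TNF/RelA-DKO CD45+EpCAM- array, 23 of the 41 were called. The immature thymocyte list moved with both comparisons against CD45+EpCAM- cells. In CD4+CD25hi cells 8 of 10 genes were called lower (median -4.11), beside 7.82% of all genes. In CD45-EpCAM+ cells 5 of 10 were called lower (median -2.49), beside 19.2%. Between CD4+CD25hi and CD45-EpCAM+ cells its median was -1.47, against 0.64 for replication and -0.91 for mitosis genes. There 5 of 10 were called lower in CD4+CD25hi cells and 3 higher, beside 20.7% and 18.3% of all genes. The list's part in these differences was not tested.

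Between CD4+CD25hi and CD45-EpCAM+ cells, the members split by function. Replication genes were called higher in CD4+CD25hi cells for 4 of 21 and lower for none, and mitosis genes lower for 8 of 20 and higher for 1. Over all genes tested, 18.3% were called higher and 20.7% lower. The median difference was 0.64 for replication genes (range -0.87 to 1.68) and -0.91 for mitosis genes (range -1.90 to 1.20), against 0.15 over all genes. The difference between the lists was not tested, and the share of replication genes called higher lies close to that of all genes.

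The replication genes called higher were Ccne1 (3.21-fold, log2 difference 1.68 ± 0.25 SE, limma adjusted p = 0.0112), Prim1 (2.53-fold, 1.34 ± 0.24, adjusted p = 0.0170), Cdt1 (2.18-fold, adjusted p = 0.0329) and Cdc6 (adjusted p = 0.0446). No fold is given for Cdc6, since its used probe was well above background on 1 of 2 CD45-EpCAM+ arrays. The other probe of Cdc6 gave the opposite order, at -2.50 and -3.34 in CD4+CD25hi cells and -2.98 and -1.78 in CD45-EpCAM+ cells. Mcm5 differed by 1.095 ± 0.33 (adjusted p = 0.0567), Pcna by 0.97 ± 0.20 (adjusted p = 0.0228, just under 2-fold) and E2f1 by 0.80 ± 0.28 (adjusted p = 0.0764). Rrm2 pointed the other way, at -0.87 ± 0.30 (unadjusted p = 0.0478, adjusted p = 0.0762).

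The mitosis genes called lower in CD4+CD25hi cells were Ccna2, Plk1, Tpx2, Ccnb1, Cdc20, Ube2c, Nusap1 and Kif23. Ccna2 was 3.72-fold lower (-1.90 ± 0.21 SE, limma adjusted p = 0.00586), Plk1 3.53-fold (-1.82 ± 0.18, adjusted p = 0.00496) and Ccnb1 2.99-fold (-1.58 ± 0.22, adjusted p = 0.00955). Kif11, at -1.33 ± 0.43, did not pass (adjusted p = 0.0670). Cenpa was called higher, at 2.30-fold (1.20 ± 0.13, adjusted p = 0.00561). Mki67 (-0.32 ± 0.19), Top2a (-0.37 ± 0.27) and Cdk1 (0.28 ± 0.23) were not called.

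These calls depended on single arrays and on the scaling. The share of all genes called in each alternative fit is not given here. With 1 array left out the fit has 1 residual degree of freedom instead of 2. Counts of members alone cannot separate a change in the members from a change in the calling rate. Leaving out the TNF-KO CD4+CD25hi array left 0 members called higher and 8 lower, leaving out the TNF/RelA-DKO CD4+CD25hi array left 3 and 5, and leaving out the TNF/RelA-DKO CD45-EpCAM+ array gave 14 members called higher, 13 of them replication genes. Without the TNF-KO CD45-EpCAM+ array 3 were called higher, and without either CD45+EpCAM- array 2 were. Centring each array on the median of its detected probes, which moved the median of all genes from 0.15 to -0.07, gave 2 replication genes higher and 1 lower, and 0 mitosis genes higher and 12 lower. Normexp background correction, which put that median near 0, gave 6 replication genes higher, and 6 mitosis genes lower and 0 higher. The median of replication genes stayed above 0 and that of mitosis genes below 0 under every scaling and every left-out array run here. Without the TNF-KO CD4+CD25hi array the replication median was 0.28, against 0.13 over all genes. Without the TNF-KO CD45-EpCAM+ array it was 0.22 against 0.10, and 15 of 21 replication genes lay above 0 in either fit. Relative to each gene's own mean, the replication median on the TNF-KO arrays was 0.01 for CD4+CD25hi and -1.17 for CD45-EpCAM+ cells. On the TNF/RelA-DKO arrays it was -0.48 and -0.69.

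**Figure D3:**
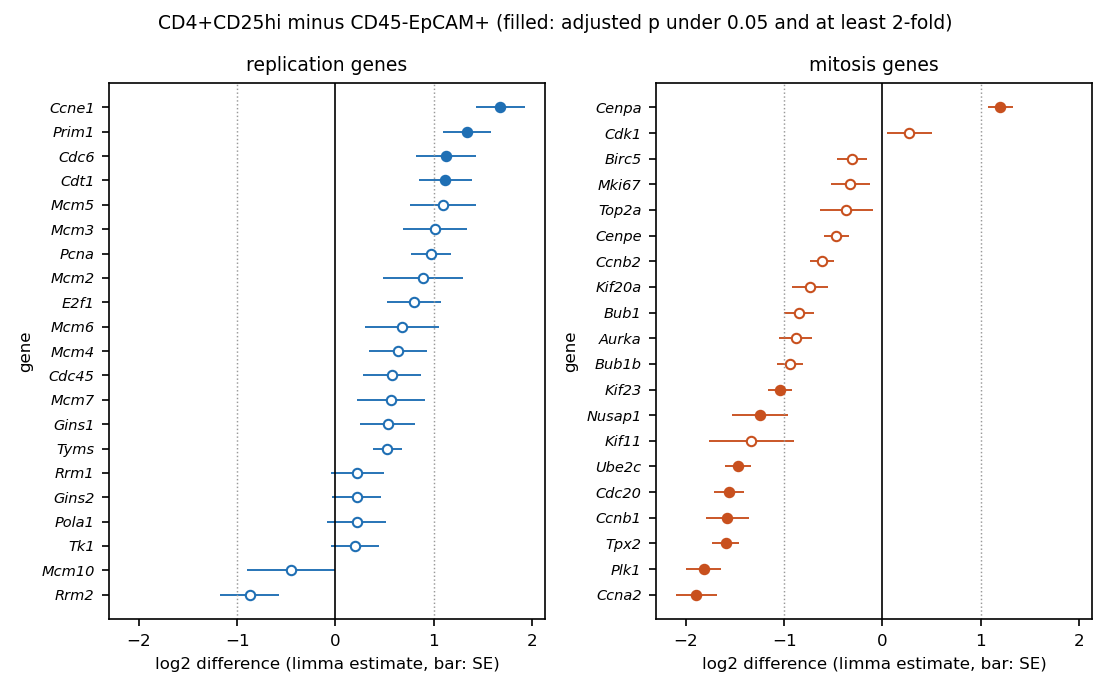
Log2 difference between CD4+CD25hi and CD45-EpCAM+ cells for each tested member, with the limma standard error as a bar; filled points passed an adjusted p under 0.05 and 2-fold, and dotted lines mark 2-fold. Of 21 replication genes 19 lie right of 0, and of 20 mitosis genes 18 lie left of it. Of all 13739 genes tested, which are not drawn, 7574 lie above 0.

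The genotypes were compared within each population as the TNF/RelA-DKO level minus the TNF-KO level. With 1 array on each side there is no test, and genes at least 2-fold apart were counted. As a yardstick for 1 gene, the differences given by several probes of the same gene spread with an SD of 0.22 for CD4+CD25hi, 0.32 for CD45-EpCAM+ and 0.21 for CD45+EpCAM- cells. These probes share the same pair of arrays, so the SD holds no spread between pools or arrays. In CD4+CD25hi cells every measured member was lower on the TNF/RelA-DKO array, 21 replication and 20 mitosis genes, where 52.2% of all genes lay below 0. That held with quantile normalization, whereas 19 of 20 mitosis genes lay below 0 after median centring, and 20 of 21 replication and 18 of 20 mitosis genes after normexp background correction. With the mean over a gene's probes, 18 of 20 mitosis genes lay below 0. The median difference was -0.57 for replication genes and -0.42 for mitosis genes, against -0.02 over all genes. At least 2-fold lower were Mcm10 (-1.15), Cdc6 (-1.14) and Kif11 (-1.11), 3 of 41 members beside 1.28% of all genes; none was at least 2-fold higher, beside 1.68%. Rrm2 followed at -0.79, Nusap1 at -0.73, Ccne1 at -0.73 and E2f1 at -0.69. The helicase ring lay between -0.61 and -0.50. Ccna2 differed by -0.65, Ccnb1 by -0.64, Top2a by -0.59, Mki67 by -0.38 and Pcna by -0.37. Bub1b, at -0.02, hardly differed. Where a second probe was well above background on all arrays, its sign was the same: Cdc6 gave -0.84, Mki67 -0.56 and Ccnb1 -0.25 and -0.46. A second, dimmer probe of Tpx2, on another transcript accession, gave 0.93 against -0.41.

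The immature thymocyte genes moved with the members in CD4+CD25hi cells. All 10 were lower on the TNF/RelA-DKO array (median -0.83), beside 52.2% of all genes below 0. Ptcra differed by -1.35, Dntt by -1.004 and Rag1 by -0.88, while the summed signal of the list went from 28.1 to 21.6 times the 75th percentile. Most of that sum was Satb1, which differed by -0.26. The median of the list was -0.28 after normexp correction, with 9 of 10 below 0, and -0.55 with the mean over probes, with 8 of 9 below 0. The members' medians after normexp correction were -0.49 for replication and -0.35 for mitosis genes. The 5 T lineage genes had a median of -0.03. The part of immature thymocytes in the members' difference was not tested.

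In CD45-EpCAM+ cells the 2 groups of genes parted. All 18 replication genes measured on both arrays were higher on the TNF/RelA-DKO array, with a median of 0.49, where 47.0% of all genes lay below 0 and the median over all genes was 0.03. Cdc6, Cdc45 and Tyms were not well above background on the TNF/RelA-DKO array, the dimmest of the 6, and have no fold there. The helicase ring differed by 0.54 to 0.85, with Mcm2 at 0.85, Mcm6 at 0.77 and Mcm7 at 0.72. Cdt1 differed by 0.62, Pola1 by 0.60, E2f1 by 0.27 and Pcna by 0.25. The second probe of Cdc6 was well above background on both arrays and differed by 1.20. After normexp background correction 16 of 18 lay above 0 and the median was 0.19; quantile normalization and median centring left all 18 above 0.

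Mitosis genes in CD45-EpCAM+ cells had 14 of 20 members below 0 and 6 above, beside 47.0% of all genes below 0. Their median was -0.10, and it stood at -0.19 after normexp correction. Kif20a differed by -0.71, Cdc20 by -0.51, Tpx2 by -0.47 and Cenpe by -0.46. Kif11 differed by 0.49, Top2a by 0.35, Nusap1 by 0.25, Cdk1 by 0.21, Mki67 by 0.18 and Ccnb1 by 0.08. The probes of Ccnb1 disagreed here, with 0.08 for the one used and -0.77 and -0.60 for the others. By the probes used, no member of either group was 2-fold apart, although the second probe of Cdc6 was, beside 9.30% of all genes at least 2-fold lower and 5.10% at least 2-fold higher. T lineage genes lay above 0 for 5 of 5 (median 0.87), immature thymocyte genes for 8 of 10 (median 0.70), and Ptprc differed by 1.18. After normexp correction the T lineage median was 0.42 and the immature thymocyte median 0.61. Granulocyte markers lay below 0 for 5 of 6 (median -1.84, 4 at least 2-fold lower) and macrophage markers above 0 for 5 of 6 (median 0.83). Medullary epithelial genes lay below 0 for 8 of 8 (median -1.18) and cortical ones above 0 for 8 of 8 (median 0.46). The part of these cells in the members' differences was not tested.

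In CD45+EpCAM- cells all 42 measured members were lower on the TNF/RelA-DKO array, where 51.2% of all genes lay below 0; 20 of 21 mitosis genes did so after quantile normalization or normexp correction. The differences were small, with medians of -0.18 for replication and -0.19 for mitosis genes, against -0.01 over all genes. Aurkb, the kinase of the chromosomal passenger complex, stood at -4.03 and -4.96. It had the widest difference, -0.93, but its signal was dim. The lowest levels well above background on these 2 arrays were -5.41 and -5.54. Plk1 followed at -0.49, Aurka at -0.48 and Cdc6 at -0.41, while Mki67 differed by -0.27 and Pcna by -0.04. None was 2-fold apart, beside 2.08% of all genes at least 2-fold lower and 1.82% at least 2-fold higher. Immature thymocyte genes lay below 0 for 9 of 10 (median -0.54) and T lineage genes for 2 of 5 (median 0.10). Granulocyte markers lay above 0 for 6 of 6 (median 1.52, 4 at least 2-fold higher), macrophage markers above 0 for 7 of 8 (median 0.73) and dendritic cell markers below 0 for 7 of 8 (median -0.52, 3 at least 2-fold lower). The part of these cells in the members' differences was not tested.

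**Figure D4:**
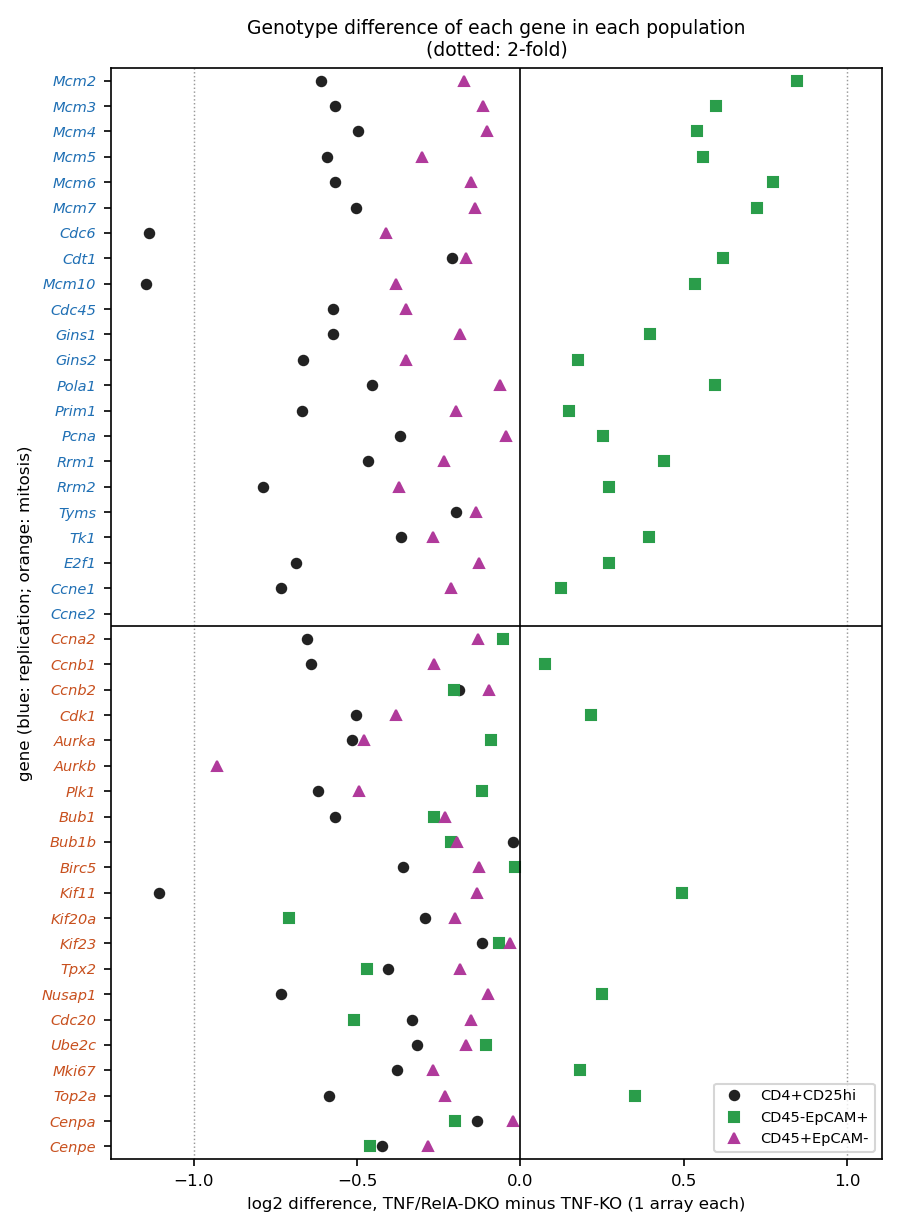
Log2 difference between the TNF/RelA-DKO and the TNF-KO array for each member in each population, 1 array on each side, with no error bar because there are no replicates; dotted lines mark 2-fold. Circles (CD4+CD25hi) and triangles (CD45+EpCAM-) lie left of 0 for every gene shown, and squares (CD45-EpCAM+) lie right of 0 for 18 of 18 replication genes and 6 of 20 mitosis genes.

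A single genotype effect over all 3 populations was estimated with limma, with population as a block, which also takes out the slide. It called 0 of 41 members and 0 of 13739 genes in either direction (0.00%). At an unadjusted p under 0.05 stood 872 of all genes and 2 members, Cenpe (-0.39 ± 0.11 SE, unadjusted p = 0.0236, adjusted p = 0.679) and Tpx2 (-0.35 ± 0.12, unadjusted p = 0.0417, adjusted p = 0.679). The estimates of all 20 mitosis genes lay below 0 (median -0.24, from -0.41 to -0.07). Those of replication genes lay below 0 for 16 of 21 (median -0.09), from -0.54 for Cdc6, which was dim on 1 array, to 0.08 for Cdt1. Over all genes, 6430 of 13739 estimates lay below 0 (median 0.02). The count of called members stayed 0 when any 1 array was left out.

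Other genes of the cell cycle, listed separately from the members, were measured alongside. Among 28 further replication genes, such as the licensing inhibitor Gmnn, 14 were called lower in CD4+CD25hi than in CD45+EpCAM- cells and none higher (median -1.31), beside 7.82% and 4.80% of all genes. Their genotype differences had medians of -0.42 for CD4+CD25hi, 0.37 for CD45-EpCAM+ and -0.20 for CD45+EpCAM- cells. Below 0 lay 23 of 26, 5 of 26 and 26 of 28, beside 52.2%, 47.0% and 51.2% of all genes. Gmnn differed by -0.90 in CD4+CD25hi cells, and the replication kinase Cdc7 by -0.85 there and 1.02 in CD45-EpCAM+ cells. Against CD45-EpCAM+ cells, 4 of the 28 genes were called higher in CD4+CD25hi cells and 1 lower, beside 18.3% and 20.7% of all genes. The median in that comparison was 0.51, with 21 of 28 above 0.

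Among 42 further mitosis genes, 41 could be tested, and 37 were called lower in CD4+CD25hi than in CD45+EpCAM- cells, beside 7.82% of all genes. Their median was -3.05 in that comparison and -0.60 against CD45-EpCAM+ cells. Their genotype medians were -0.44, -0.11 and -0.20. Against CD45-EpCAM+ cells, 13 were called lower in CD4+CD25hi cells and 2 higher, beside 20.7% and 18.3% of all genes. The widest difference was that of the condensin subunit Smc4, 11.4-fold higher in CD4+CD25hi than in CD45-EpCAM+ cells (3.52 ± 0.20 SE, limma adjusted p = 0.00212) and 0.34 ± 0.20 from CD45+EpCAM- cells (adjusted p = 0.310).

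**Figure D5:**
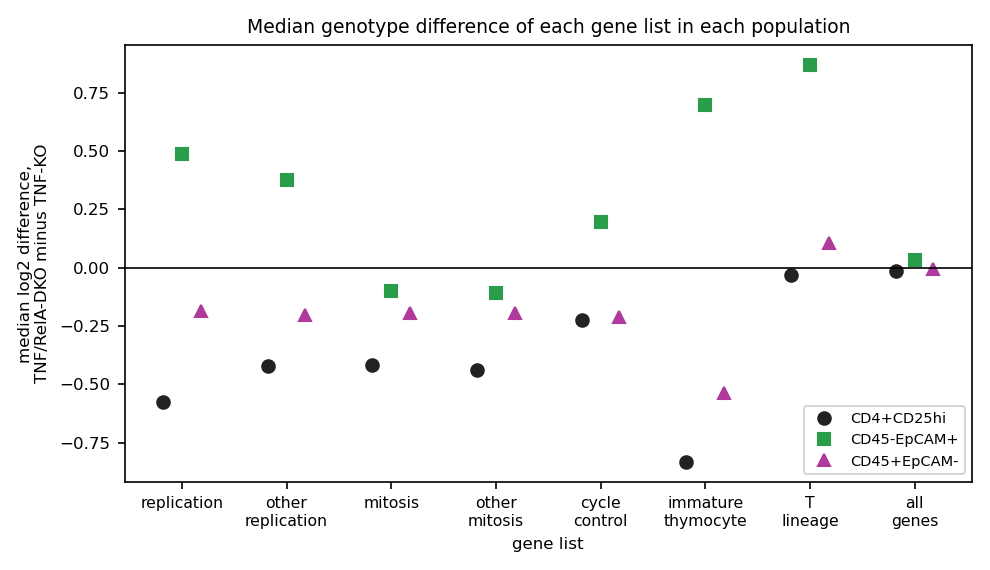
Median log2 difference between TNF/RelA-DKO and TNF-KO arrays of each gene list in each population, 1 array on each side. Replication genes and the further replication genes lie above 0 in CD45-EpCAM+ cells (0.49 and 0.37) and below 0 in the other 2 populations, mitosis genes lie below 0 in all 3 populations, and the immature thymocyte list lies at -0.83, 0.70 and -0.54.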

How the data were processed

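Agilent one-colour arrays were read for 6 pools of sorted thymic cells, 1 per genotype and population, and each array's genes were compared across 2 genotypes and 3 populations. Scans were extracted with Feature Extraction 10.5.1.1, per the file headers, while the submitters' processing notes give 9.5. The deposited scanner files hold background-corrected signal intensity per spot and flags for spots well above background. The deposited value table holds log2 values; its scale is not stated in the sources used here. It equalled log2 intensity minus each array's 75th percentile within 0.05 for all probes, so its centring is settled, and its column medians were -3.72, -3.61, -2.84, -2.72, -3.63 and -3.58.

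Of 39429 probes, 39419 were used after control and outlier spots were left out. RefSeq accessions gave 1 symbol for 27466 probes, several for 35 and none for 11918. Spots of a probe were averaged and scaled to the 75th percentile, and the brightest probe stood for a gene. The test was limma 3.58.1 (R 4.3.3) with terms for population and genotype, over the 13739 genes whose signal was well above background on 3 or more arrays, and p-values were adjusted by Benjamini-Hochberg over all of them. Residual degrees of freedom were 2 (prior 1.74), or 1 with an array left out. In the population comparisons, shares of all genes called are given for the main fit only. The fit was also run on simulated arrays with known shifts, independent noise and no genotype effect. That run checks the code and not the error of the real arrays. No sample label says whether further pools existed, and p-values measure only the variation of the genotype difference from one population to the next, not the spread between pools. A gene dim on 1 side has a bound, against the lowest signal well above background, or no fold; 119, 2604 and 27 genes had no fold in the genotype comparisons of CD4+CD25hi, CD45-EpCAM+ and CD45+EpCAM- cells. Precision is limited by how few arrays there are.

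The members and lists were chosen with earlier results of these data known, and the grouping by role was made after the values were seen. The rule for values on every array took, per comparison and list, the 3 members with the widest difference in each direction, and Mki67, Top2a, Ccnb1, Mcm5, Pcna and E2f1 in any case; of each further list up to 4 genes with the widest differences could be named. Other members are named as examples of their role. Alternatives were normexp correction, quantile normalization, centring on the median of detected probes, the mean over probes, the value table, other filters, an intensity trend in the prior, and each array left out. Array coordinates are on another build (mm9, per the file headers) and are not used.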

Additional observations from a re-analysis of the deposited data

Results flagged for a closer look

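The genotype difference (TNF/RelA-DKO minus TNF-KO) had opposite signs in 2 populations and differed by more than 2-fold between them for the results below, each from 1 array per group. The differences between populations were not tested, and the share of all genes that meet this rule is not given here. In CD45-EpCAM+ cells 9.30% of all genes were at least 2-fold lower and 5.10% at least 2-fold higher. In CD4+CD25hi cells these shares were 1.28% and 1.68%.

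The median of replication genes was -0.57 in CD4+CD25hi and 0.49 in CD45-EpCAM+ cells, a gap of -1.06. Within the helicase ring the gap between these populations was -1.46 for Mcm2, -1.17 for Mcm3, -1.04 for Mcm4, -1.15 for Mcm5, -1.34 for Mcm6 and -1.23 for Mcm7. Mcm10 had a gap of -1.68, Pola1 of -1.05 and Rrm2 of -1.06. Kif11 was the mitosis gene concerned, at -1.11 and 0.49, a gap of -1.60. Mcm2 also differed between CD45-EpCAM+ (0.85) and CD45+EpCAM- cells (-0.17), a gap of 1.02.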

How the results depend on the processing

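With any 1 array left out, 0 to 14 members were called higher in CD4+CD25hi than in CD45-EpCAM+ cells, against 5 in all, and 5 to 11 lower, against 8. The number called lower than in CD45+EpCAM- cells ranged from 0 to 41 for CD4+CD25hi, against 34, and from 23 to 41 for CD45-EpCAM+, against 41. The number called higher in CD4+CD25hi than in CD45-EpCAM+ cells was 2 when arrays were centred on the median of detected probes, 3 with the mean over probes and 3 without a filter. Median centring gave 13 called lower than in CD45-EpCAM+ cells, and no filter gave 20 lower than in CD45+EpCAM- cells. The shares of all genes called under these alternatives are not given here, and the causes of these changes were not tested.

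The medians of the genotype difference kept their sign under the alternatives run: -0.57 to -0.49 (replication) and -0.42 to -0.35 (mitosis) in CD4+CD25hi cells, 0.19 to 0.54 and -0.19 to -0.09 in CD45-EpCAM+ cells, and -0.18 to -0.16 and -0.19 to -0.16 in CD45+EpCAM- cells. The common genotype effect called 0 members throughout. Normexp correction was run on the median spot signal, a choice made after seeing the data, because the scanner output used here lacks the mean signal it was planned on. The genotypes were paired by population in the common fit, where population is the block; replicate numbers pair no arrays, since each group holds 1. Dim signal limited the TNF/RelA-DKO CD45-EpCAM+ array, where genes below a level of -2.82 have only a bound or no fold.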

Other observations

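Genes that control the cycle were measured beside the members, and the widest values are named after they were seen. Ccnd1 (cyclin D1) stood at 1.51 and -0.50 in CD45-EpCAM+ cells (TNF-KO first) and at 1.14 and -1.30 for the CD45+EpCAM- sort, 4.03-fold and 5.45-fold lower on the TNF/RelA-DKO arrays. It was at least 36.4-fold lower in CD4+CD25hi than in CD45-EpCAM+ cells. On the CD45-EpCAM+ arrays, Cdkn2a, which encodes the inhibitors p16 and p19ARF, stood at 1.53 and -0.64, and Cdkn1c (p57) at 4.03 and 1.92. The repressors E2f7 and E2f8 differed by -1.13 each in CD4+CD25hi cells. Smc4 stood at 4.69 and 5.18 for CD4+CD25hi, 1.26 and 1.57 for CD45-EpCAM+ and 4.66 and 4.54 for CD45+EpCAM- cells, so that it was higher on the TNF/RelA-DKO array of CD4+CD25hi cells, where 34 of 39 further mitosis genes were lower. In that population 52.2% of all genes lay below 0. All these genotype differences rest on 1 array per group and have no test.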
